A study of Mus musculus with 27 samples.

Results

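The expressed long intergenic noncoding RNAs (lincRNAs) of mouse hepatic stellate cells (HSCs) are described here in 27 bulk RNA sequencing libraries. A lincRNA gene was a member when the GENCODE M21 annotation typed it as lincRNA, it lay on an autosome and its mean over the 27 libraries reached 5 CPM, the usual count unit per 1e6 counts of the library. The imprinted genes H19, Meg3 and Rian were left out. The rule chose 87 genes of the 53379 in the count table. Of 4603 autosomal lincRNA genes with a row, 2790 had no count in any library, and 88 reached the level before Meg3 was taken out. The members were thus chosen by their mean level of expression over all libraries, so levels are given as a description. The comparisons between groups did not enter the rule, except that members held at the level by their highest group alone had to vary.

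HSCs are the retinoid-storing pericytes of the liver sinusoid, which become matrix-producing myofibroblasts after injury. All mice were male Balb/c, and HSCs were sorted by their ultraviolet fluorescence and collected without culture, so each library holds what that gate kept. Healthy mice (n = 4), aged 10 to 12 weeks, received no injection, and the labels name no group given the mineral oil vehicle alone. Acute injury was 1 intraperitoneal injection of the hepatotoxin carbon tetrachloride (CCl4) at 0.5 µL per g body weight in mice of 10 to 12 weeks. Its groups hold 3 libraries at 24 h, 4 at 72 h and 4 at 7 d. Chronic injury was 8 injections of the same dose over 4 weeks in mice aged 8 to 10 weeks, and its 3 groups of 4 libraries were taken at 24 h, 72 h and 14 d from the last injection. The study's methods state that each repeat was an individual experiment.

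LincRNAs are transcripts longer than small RNAs, usually capped, often spliced and not read into protein, and many act in the nucleus. Malat1 gathers in nuclear speckles, which store splicing factors, and Neat1 is the scaffold of paraspeckles, bodies that retain proteins and some RNAs. Others serve as hosts from whose introns or exons small nucleolar RNAs (snoRNAs, guides of RNA modification) or microRNAs are cut. Many lincRNA genes start beside a protein-coding gene or overlap one, and without strand information reads from such a pair cannot be separated where the exons overlap. The strand setting of the counting is not given in the sources used here.

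The sequences below are those of members on which the results turn. Gm29233 is shown because most of its short spliced transcript lies in exons of Thbs1, the gene of the matrix glycoprotein thrombospondin 1, on the opposite strand. The capitals mark the 212 of 281 bases (75.4%) that fall in windows of 20 bases found in the reverse complement of Thbs1 transcripts, and in the annotation these stretches are coding exons. The gene lies on the minus strand of GRCm38 at chr2:118123451-118124047.
Gm29233: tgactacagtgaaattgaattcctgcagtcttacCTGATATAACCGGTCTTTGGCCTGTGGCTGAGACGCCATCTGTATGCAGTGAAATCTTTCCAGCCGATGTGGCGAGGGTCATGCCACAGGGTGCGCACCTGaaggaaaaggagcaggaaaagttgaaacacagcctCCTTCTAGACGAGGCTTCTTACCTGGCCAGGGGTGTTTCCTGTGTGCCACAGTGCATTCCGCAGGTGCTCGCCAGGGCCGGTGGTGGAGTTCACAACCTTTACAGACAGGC
Gm17501 is shown for the window beside a divergent gene, since its start lies 331 bp from that of Ccn1 (formerly Cyr61), a matricellular gene known as a target of the YAP and TEAD factors. RefSeq (GRCm38.p6) gives 250 bases before and 50 after each gene's start. The capitals mark matches, on either strand, to GGAATG (the core that TEAD factors bind), TGANTCA (a loose form of the AP-1 site) and TATAAA (the TATA box core). N stands for any base. These motifs occurred in 14.7%, 7.81% and 13.6% of 32851 promoters in the table and in 7, 3 and 5 of the 33 members that have one there. The Gm17501 window lies at chr3:145649827-145650126 on the plus strand, and its RefSeq start is 235 bp from the GENCODE start.
Gm17501: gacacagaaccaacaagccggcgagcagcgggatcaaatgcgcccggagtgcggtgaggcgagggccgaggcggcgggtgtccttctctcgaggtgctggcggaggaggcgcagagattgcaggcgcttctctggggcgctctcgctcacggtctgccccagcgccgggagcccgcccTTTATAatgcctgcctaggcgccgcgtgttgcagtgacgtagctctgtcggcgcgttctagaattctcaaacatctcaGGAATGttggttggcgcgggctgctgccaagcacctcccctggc
It holds 1 GGAATG and 1 TATAAA match and no TGANTCA. The TATAAA match reads on the strand opposite to Gm17501, which is that of Ccn1. Gm16907 is shown as a gene that was lower in HSCs of all 6 injured groups, although healthy HSCs are the group that held it at the level of the rule. Its window lies on the minus strand at chr13:63297098-63297397 and holds 1 GGAATG match and 1 TGANTCA match, which reads TGATTCA.
Gm16907: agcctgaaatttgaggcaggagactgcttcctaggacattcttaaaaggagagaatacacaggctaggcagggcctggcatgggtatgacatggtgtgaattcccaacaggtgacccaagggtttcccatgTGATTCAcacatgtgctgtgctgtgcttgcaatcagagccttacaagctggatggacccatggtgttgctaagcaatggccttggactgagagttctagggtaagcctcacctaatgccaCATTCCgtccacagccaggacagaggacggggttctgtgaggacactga
A match of letters is a description and not a binding site. Snhg18 is the host of the box C/D snoRNA Snord123 (GRCm38, minus strand, chr15:32241853-32241923), in which the capitals mark TGATGA, the C box, from base 9 and CTGA, the D box, from base 62.
Snord123: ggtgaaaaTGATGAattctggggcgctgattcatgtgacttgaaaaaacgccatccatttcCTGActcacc
The span of Snhg20 holds the microRNA gene Mir6516, whose 2 mature arms are given from RefSeq (GRCm38.p6, plus strand, chr11:117077370-117077391 and chr11:117077412-117077433) with the seed, bases 2 to 8, in capitals.
mmu-miR-6516-5p: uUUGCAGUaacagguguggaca
mmu-miR-6516-3p: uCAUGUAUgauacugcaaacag

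Most lincRNAs were near the level of the rule, and few were abundant. Only 8 members exceeded 100 CPM on average, while 59 lay between 5 and 20 CPM. Members reached the level in all 7 groups in 50 cases and in 1 group alone in 1 case, and 13 members fell below it once their highest group was left out. These 13 are AI427809, Gm16907, Gm26580, Gm29233, Gm36161, Lppos and Zfp469 and, named for this reason, Gm12840, Gm26522, Gm26819, Gm26857, Gm26883 and Gm42047. The rule itself favoured a difference between the highest group of such a member and the rest, and this applies to each call of theirs given here. Just inside the level were Lppos (5.10 CPM), Gm26522 (5.14 CPM) and BC002059 (5.24 CPM), and just outside were Gm17484 (4.99 CPM), Gm48855 (4.94 CPM) and Gm14230 (4.92 CPM). Per kb of exon, Malat1 stood highest at 1387 CPM per kb, before Gm26917 (778 CPM per kb), Gm26825 (280 CPM per kb), AW112010 (135 CPM per kb) and Gm10076 (94.2 CPM per kb). Of these, Gm26917 is listed among noncoding RNAs derived from ribosomal repeats. Members together took 1.52% to 2.71% of the counts in healthy HSCs, and 0.428% to 0.832% when Malat1 was left aside.

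The members shared little besides their annotation type. Exons of 30 members overlapped those of a protein-coding gene, in 27 cases on the opposite strand. Another 9 started within 1000 bp of a divergent protein-coding gene, and 7 lay within 5000 bp downstream of one on the same strand. The remaining 41 met none of these rules, which does not place them far from a coding gene. In this class the spans of Gdap10, Zfp469, Gm42047 and Gm26522 overlap that of a coding gene without exon overlap. RefSeq matched 40 members. It typed 33 as lncRNA, 1 (Gm10076) as pseudogene, 2 (Gm32618 among them) as transcribed pseudogene and 4 as protein coding. Zfp469 is one of the latter, and the GENCODE member (chr8:122269569-122272650, a single exon of 3082 bp) ends at the same base as the RefSeq coding gene, whose human counterpart is mutated in brittle cornea syndrome. Its values therefore may not be those of a noncoding RNA. Cutting transcripts into windows of the 75 base read length, 28 members shared no window with another gene, 33 shared at least 10% and 17 shared at least 50%. Gm26825 shared 92.0% of its windows (with Hspa8 among others), Gm42418 93.1% with a ribosomal RNA gene, Gm10076 51.3% with genes that include Rpl41, and Gm36161 55.7% with Gm21188 and others, so their counts depended on how shared reads were assigned.

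Counts of some lincRNAs were present or absent library by library. In 69 members every library held counts, but some of these also varied widely within a group. At chronic 24 h Tmem250-ps had 4, 706, 977 and 1158 counts and Gm26719 had 9, 5, 958 and 271. Both are named after their values were seen. In 14 members a group held both a library with 0 counts and one with at least 100, and 12 of these 14 shared at least 10% of their windows; they are named here after their values were seen. Gm26809 had 2796 counts in acute 24 h replicate 1 and 0 in replicates 2 and 3. Gm26883 had 0 in 25 libraries, with 615 and 1447 counts in chronic 24 h replicates 2 and 4, and 96.8% of its windows were shared with Tshz2. It did not pass the filter on low counts, which left 86 members tested. Gm26899 was at 0 in 16 libraries and Gm48942 in 17, and neither was called in any comparison with healthy HSCs. The part that the division of reads among overlapping genes had in these zeros was not tested.

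Library totals ran from 6.31 M to 13.1 M counts, and the 8 libraries of lowest depth all belonged to chronic groups, including all 4 of chronic 14 d. Correlation between libraries of a group was 0.902 to 0.960 over log2 CPM of all genes tested. The sorted cells carried stellate cell markers in every group, with a summed level of 28177 to 45155 CPM for 12 genes in healthy HSCs and 15054 to 18337 CPM at chronic 24 h. Markers of other cells moved with the groups. The sum of 10 macrophage genes was 146 to 600 CPM in healthy HSCs, where Marco was at 0, 491 to 3502 CPM at chronic 24 h and 4312 to 10276 CPM at acute 7 d, and 7, 7, 3, 1, 1 and 9 of the 10 were called higher than healthy at chronic 24 h, 72 h and 14 d and acute 24 h, 72 h and 7 d. Of the 10, 2 were called lower at acute 24 h, led by Csf1r (−2.38 on the log2 scale). The sum of 10 hepatocyte genes was 556 to 3372 CPM in healthy HSCs, with replicate 4 highest, and 53.2 to 286 CPM at acute 24 h, where 9 of 10 were called lower. Of 8 sinusoidal endothelial genes, 4 were lower at chronic 24 h, 6 at acute 24 h and 7 at acute 72 h, and Lyve1 was higher at acute 24 h (1.57 on the log2 scale) and acute 7 d (1.45). All 5 neutrophil genes tested were higher at chronic 24 h, 72 h and 14 d and at acute 7 d. At acute 24 h 4 of them were higher and at acute 72 h 3. Of 8 lymphocyte genes 3, 4 and 6 were higher at chronic 24 h, 72 h and 14 d. At acute 7 d 6 of the 8 were higher, while 2 were lower at acute 24 h and 1 at acute 72 h. The sum of 6 cholangiocyte genes was 54.3 to 95.7 CPM in healthy HSCs, 537 to 1245 CPM at chronic 24 h and 758 to 5021 CPM at acute 7 d, where 1 of 5 tested was called higher, Spp1 (5.44). That of 7 mesothelial and portal fibroblast genes was 22.0 to 40.9 CPM in healthy HSCs and 69.0 to 138 CPM at chronic 24 h, where 2 of 6 tested were called higher, led by Thy1 (2.84). A fall in a bulk library cannot tell fewer cells of a type from less RNA per cell, and the part of these cells in the lincRNA values was not tested.

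The first comparison asked how many lincRNAs differed between injured and healthy HSCs. One edgeR quasi-likelihood model was fitted over 18758 genes, and a gene was called when its Benjamini-Hochberg adjusted p was below 0.05 and its change above 2-fold. All comparisons with healthy HSCs use the same 4 healthy libraries. Of 86 lincRNAs, 7 were called higher and 13 lower at chronic 24 h, beside 11.2% and 8.11% of all genes. At chronic 72 h, 6 were higher and 10 lower (all genes 7.88% and 4.2%). At chronic 14 d, 2 were higher and 5 lower (4.55% and 1.17%). At acute 24 h, 7 were higher and 16 lower (9.41% and 12.5%), at acute 72 h 10 and 12 (8.23% and 4.33%), and at acute 7 d 10 and 14 (9.23% and 5.64%). These counts include the members held at the level by their highest group. Among the other 74 members, 4 were higher and 11 lower at chronic 24 h (5.41% and 14.9%), 1 and 8 at chronic 72 h (1.35% and 10.8%) and 1 and 4 at chronic 14 d (1.35% and 5.41%). After acute injury the numbers were 5 and 12 at 24 h (6.76% and 16.2%), 6 and 11 at 72 h (8.11% and 14.9%) and 5 and 12 at 7 d (6.76% and 16.2%). In these 74 the share called lower was above that of all genes at each time. The share called higher was below that of all genes, by little at acute 72 h (8.11% beside 8.23%). Most members left out had their highest mean in an injured group, and all genes were not cut in this way. The lower share called higher in the 74 therefore cannot be read as a trait of lincRNAs. In all 86 that share was 11.6% at acute 72 h and at acute 7 d, above that of all genes. It was below that of all genes in the other groups. None of these differences was tested. The median log2 change of lincRNAs was −0.28 at chronic 24 h, −0.12 at acute 24 h and −0.35 at acute 7 d, where that of all genes was −0.03, −0.12 and 0.01. Among the 43 members with no exon overlap and under 10% of windows shared, 4 were higher and 7 lower at chronic 24 h. At acute 24 h, 4 of the 43 were higher and 11 lower. Their share called higher was above that of all genes at acute 72 h (11.6%) and acute 7 d (14.0%). It was below that of all genes in the other groups, and no difference was tested. Zfp469 and AI427809, held at the level by their highest group, are among the 43. The chronic 14 d count rested on single libraries. Its total of 7 was 1 without healthy replicate 2 or chronic 14 d replicate 2, 3 or 4, and 2 without healthy replicate 3, and with library totals or DESeq2 size factors in place of TMM scaling the split was 2 higher and 2 lower.

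**Figure D1:**
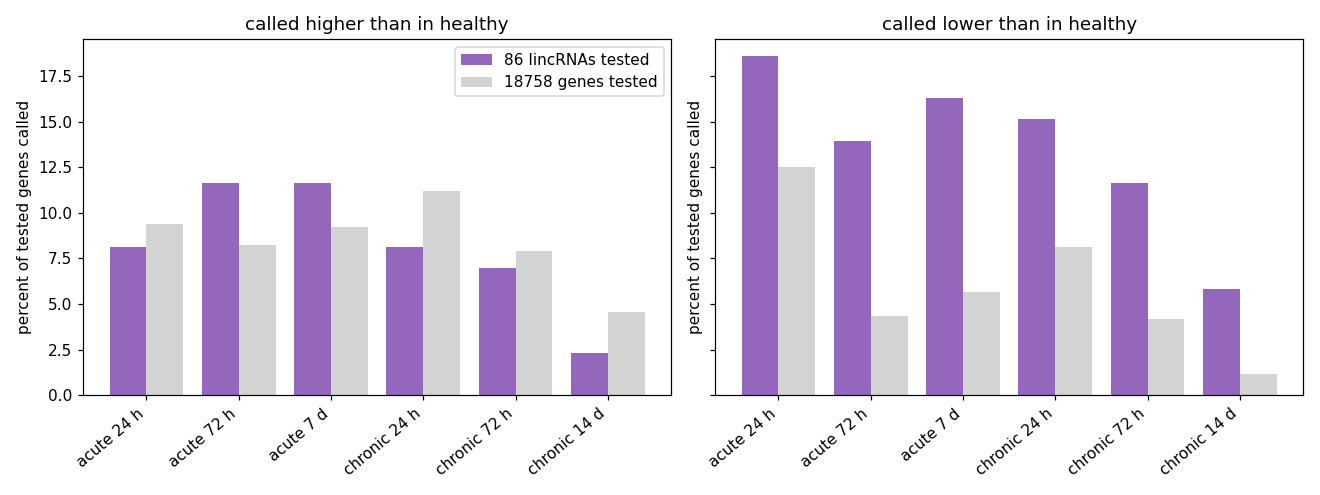
Bars give the percent of tested genes called higher (left) or lower (right) than in healthy HSCs, for the 86 lincRNAs and for all 18758 genes, at 6 times after injury. In the right panel the lincRNA bar stands above the bar of all genes at every time.

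Across the 7 groups, 52 of 86 lincRNAs differed at an adjusted p below 0.05, beside 56% of all genes. Against healthy HSCs 46 lincRNAs were never called, 14 were higher and 28 lower in at least 1 group, and 2 of these, AI427809 and Gm42047 (the latter named after its values were seen), were called in both directions. The members lower in all 6 injured groups were Gm16907 and Gm26860, of which Gm16907 had a mean of 4.13 CPM without the healthy libraries and so was a member only through the group it is compared with. Those higher in 5 of 6 were Zfp469, Gm29233, Gm36161, Gm10076 and Gm44751, of which only Zfp469 and Gm44751 have under 10% of windows shared. Gm26860 shares 7.07% of its windows with Sec63, its healthy libraries held 11.4, 17.05, 23.1 and 5.32 CPM, and every injured group overlapped them. Its falls ran from 1.24 ± 0.45 at acute 24 h to 1.85 ± 0.41 at acute 7 d on the log2 scale. They were lost at chronic 24 h without healthy replicate 3 (adjusted p = 0.0779) or chronic 24 h replicate 4 (0.0577), at chronic 14 d without healthy replicate 2 or 3 or chronic 14 d replicate 2, 3 or 4 (0.0753 to 0.123) and at acute 24 h without healthy replicate 2 or 3 or acute 24 h replicate 1 or 2 (0.0732 to 0.144). Gm10076 was higher by 1.09 to 1.48 on the log2 scale, and went under 2-fold at chronic 24 h without healthy replicate 3 (0.92) or chronic 24 h replicate 3 (0.89) and at chronic 72 h without healthy replicate 3 (0.90) or chronic 72 h replicate 4 (0.85).

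**Figure D2:**
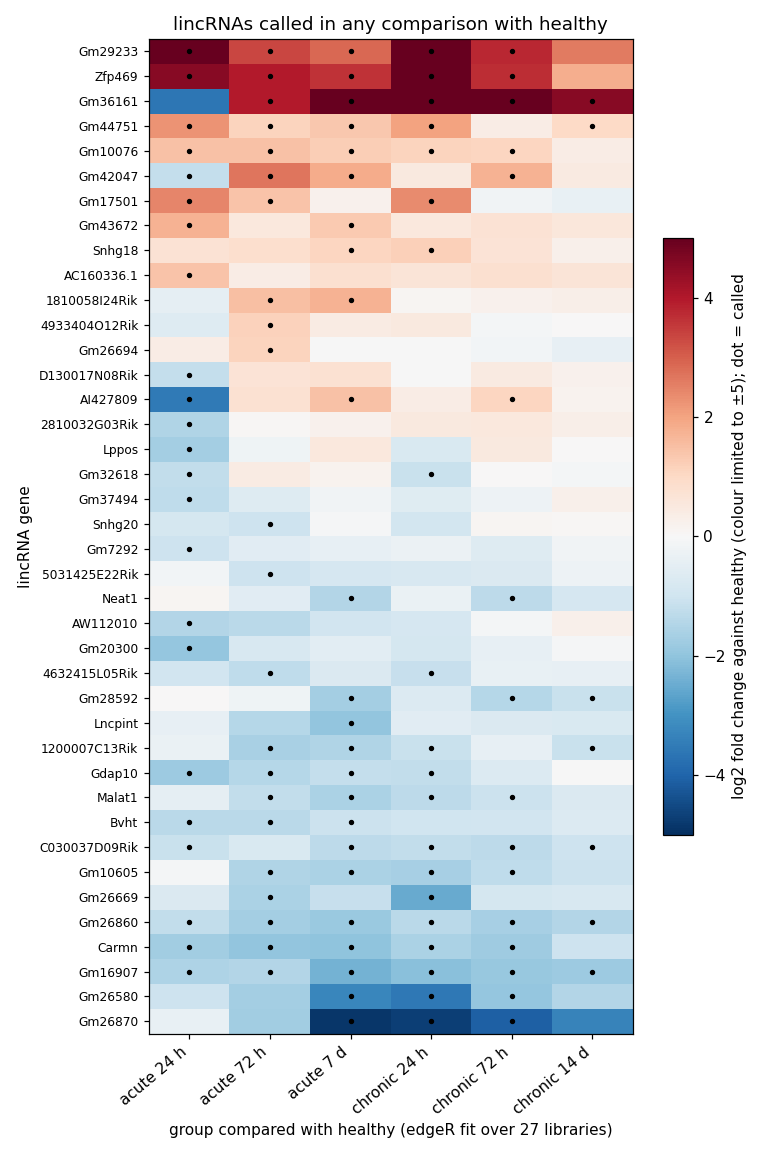
Colours give the log2 fold change of the lincRNAs called in any comparison with healthy HSCs, rows are genes ordered by their mean change, columns are the 6 injured groups, and dots mark called changes. The darkest red cells belong to Gm29233, Zfp469 and Gm36161, and Gm16907 and Gm26860 carry a dot in every column. The colour of Gm36161 at acute 24 h is a fit to 3 libraries at 0 and is no measure of size.

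Malat1 and Neat1, which lie close together on chromosome 19 (chr19:5795690-5802672 and chr19:5824708-5845478, minus strand), were lower at several times after injury. Malat1 stood at 20593, 18491, 15841 and 10875 CPM in the healthy libraries, at 8031, 5064, 7025 and 6805 CPM at chronic 24 h and at 6881, 7644, 3707 and 5475 CPM at acute 7 d. All libraries of these injured groups were below the lowest healthy one. It fell by 1.29 ± 0.26 on the log2 scale (SE) at chronic 24 h (edgeR adjusted p = 0.000506), by 1.24 ± 0.26 at acute 72 h (edgeR adjusted p = 0.00126) and by 1.58 ± 0.26 at acute 7 d (edgeR adjusted p = 0.00011). At acute 24 h its libraries held 10299, 13069 and 12355 CPM, overlapping the healthy range, and at chronic 14 d 8312 to 13537 CPM; neither was called. At chronic 72 h it fell by 1.08 ± 0.26 (edgeR adjusted p = 0.00424), which went under 2-fold without healthy replicate 1 (−0.97) or chronic 72 h replicate 4 (−0.98).

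Neat1, in contrast to Malat1, was not called at chronic 24 h or acute 72 h. Its healthy libraries held 1350, 1372, 1375 and 563 CPM, so that replicate 4, which also had the lowest Malat1 and Gm26917 and the highest hepatocyte sum of that group, stood apart. Healthy replicate 4 also had the fewest genes detected of its group (18807, against 22499 to 26162). At acute 24 h Neat1 held 1012, 1293 and 1382 CPM, and at acute 7 d 559, 774, 212 and 268 CPM. It fell by 1.48 ± 0.39 on the log2 scale at acute 7 d (edgeR adjusted p = 0.00743) and by 1.29 ± 0.39 at chronic 72 h (edgeR adjusted p = 0.0198), in both cases with libraries overlapping healthy replicate 4. The latter call was lost without healthy replicate 2 (adjusted p = 0.0524) or 3 (0.0522) or chronic 72 h replicate 3 (0.0535) or 4 (0.0733). Gm26917 ranged from 954 to 3648 CPM in healthy HSCs and was called in no comparison. Nor were the other 2 genes of its list, that of noncoding RNAs derived from ribosomal repeats. Whether Gm26917 counts are reads of ribosomal RNA was not tested. At acute 72 h the first 2 replicates lay above the other 2 for Malat1 (10466 and 9232 against 5174 and 5086 CPM), for Neat1 (1405 and 990 against 520 and 482 CPM) and for Gm26917 (5695 and 3054 against 1909 and 1740 CPM). The genes detected there split likewise, at 24954 and 23795 against 19816 and 21721. At acute 7 d, where Neat1 ran from 212 to 774 CPM, 22035 to 22379 genes were detected. The link between these values was not tested.

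**Figure D3:**
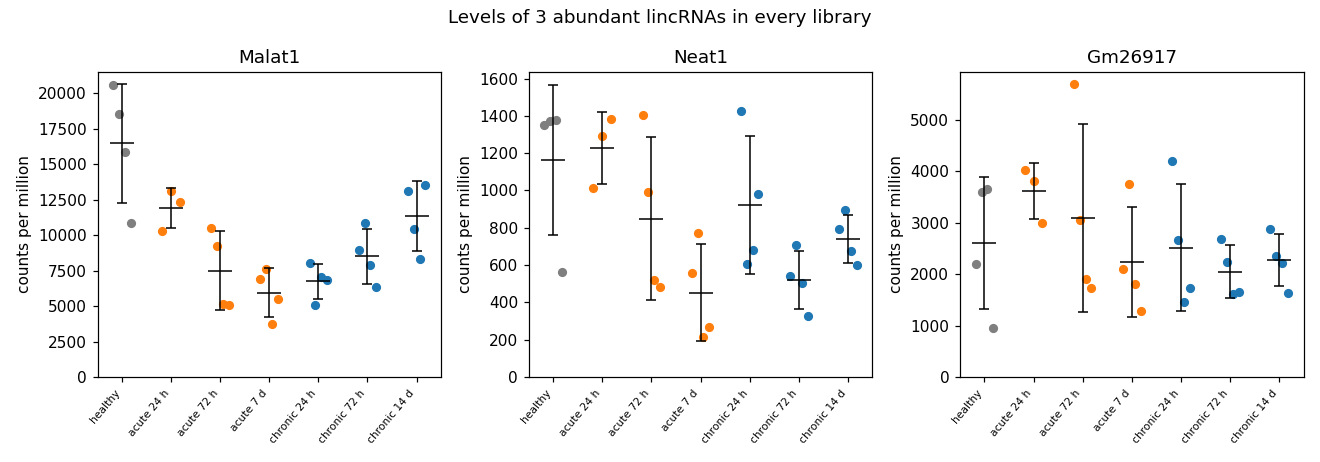
Points are the CPM of Malat1, Neat1 and Gm26917 in each library (grey healthy, orange acute, blue chronic), with group means and SD as bars. Malat1 at chronic 24 h and acute 7 d lies below the lowest healthy library at 10875 CPM, while for Neat1 and Gm26917 the groups overlap.

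Zfp469, Gm29233, Gm17501 and Gm44751 were higher at 24 h after either course, as was Gm10076. Zfp469 held 0.877, 0.0927, 0.318 and 0 CPM in healthy libraries. At chronic 24 h it held 16.8, 23.6, 17.5 and 26.2 CPM, and at acute 24 h 9.28, 4.97 and 9.02 CPM, all above every healthy library. It was higher by 5.99 ± 0.67 on the log2 scale at chronic 24 h (edgeR adjusted p = 3.76e-07) and by 4.57 ± 0.66 at acute 24 h (edgeR adjusted p = 1.25e-05), and stayed called at 72 h after either course (3.68 and 3.98). Without chronic 24 h its mean was 3.81 CPM, below the level of the rule, which favoured the chronic 24 h difference. By chronic 14 d it held 1.15, 1.22, 0.807 and 2.06 CPM and had fallen by 4.17 ± 0.60 from chronic 24 h (edgeR adjusted p = 2.45e-05).

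Gm29233 was likewise highest at chronic 24 h. Its healthy libraries held 1.05, 0, 0.397 and 0 CPM, those of chronic 24 h 30.1, 33.5, 37.3 and 47.9 CPM and those of acute 24 h 12.1, 6.28 and 19.04 CPM. It was higher by 6.64 ± 1.01 on the log2 scale at chronic 24 h (edgeR adjusted p = 2.31e-05) and by 5.08 ± 0.99 at acute 24 h (edgeR adjusted p = 0.000356). Without chronic 24 h its mean was 4.28 CPM, below the level of the rule, which favoured the chronic 24 h difference. Thbs1, whose coding exons hold most of the Gm29233 sequence printed above, rose from 92.7 ± 27.8 CPM (SD, n = 4) in healthy HSCs to 5415 ± 1276 CPM (n = 4) at chronic 24 h and 1949 ± 661 CPM (n = 3) at acute 24 h. The log2 changes of Gm29233 and Thbs1 were 6.64 and 5.86 at chronic 24 h, 3.75 and 3.18 at chronic 72 h, 5.08 and 4.40 at acute 24 h, 3.35 and 2.91 at acute 72 h and 2.85 and 2.46 at acute 7 d. Whether Gm29233 counts are reads of Thbs1 cannot be told apart in these counts. The acute 7 d call of Gm29233 was lost without healthy replicate 2, 3 or 4 or acute 7 d replicate 3 or 4 (adjusted p 0.0647 to 0.105).

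Gm17501, with no window shared and a start 331 bp from Ccn1, was high at 24 h after either course and was called in no later group but acute 72 h. Its healthy libraries held 3.42, 5.10, 5.48 and 4.75 CPM. At acute 24 h it held 28.4, 25.5 and 21.8 CPM, at acute 72 h 12.6, 18.6, 11.0 and 11.6 CPM and at chronic 24 h 17.3, 21.1, 33.8 and 24.7 CPM, none of which overlapped healthy. The log2 changes were 2.43 ± 0.28 (edgeR adjusted p = 7.89e-07), 1.41 ± 0.26 (0.000428) and 2.36 ± 0.27 (4.99e-07). At chronic 72 h it held 3.34 to 5.91 CPM and was not called. Ccn1 was called at chronic 24 h (1.14 ± 0.26 on the log2 scale) and had log2 changes of −0.01 ± 0.28 at acute 24 h and 0.00 ± 0.26 at acute 72 h; the difference between the 2 genes was not tested. Gm44751 lies 590 bp downstream of Ctsc, which codes for the lysosomal protease cathepsin C, on the same strand. It held 3.86, 2.13, 2.86 and 3.06 CPM in healthy HSCs, 16.5, 10.3 and 15.1 CPM at acute 24 h and 8.49, 8.84, 16.3 and 14.8 CPM at chronic 24 h. It was higher by 2.23 ± 0.33 and 2.02 ± 0.31 on the log2 scale (edgeR adjusted p = 1.56e-05 and 2.88e-05), beside 2.32 and 1.93 for Ctsc. At chronic 14 d its change from healthy (1.00 ± 0.31, edgeR adjusted p = 0.0466) was lost without any 1 of 7 of the 8 libraries (0.87 to 1.14), the exception being chronic 14 d replicate 1. At acute 72 h its change (1.09 ± 0.31) went under 2-fold without healthy replicate 2 (0.96).

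Gm36161 and AI427809 differed between repeated and single injury. The step from 24 h to 72 h differed between the courses for 15 of 86 lincRNAs, beside 8.74% of all genes, by an edgeR test of the difference itself, and these 2 were among them. Gm36161 held 0, 0.185, 0.318 and 0 CPM in healthy HSCs and 0 in all 3 acute 24 h libraries. At acute 7 d it held 17.8, 15.6, 25.4 and 13.9 CPM, its highest level, and at chronic 24 h 9.64, 16.6, 2.45 and 2.99 CPM. The change from healthy was 6.95 ± 0.79 on the log2 scale at acute 7 d (edgeR adjusted p = 2.53e-06) and 5.81 ± 0.78 at chronic 24 h (edgeR adjusted p = 7.29e-06). Without acute 7 d the mean of Gm36161 was 3.50 CPM, below the level of the rule, so the rule favoured the acute 7 d difference. Against a floor of 3 counts per library, chronic 24 h was at least 31.9-fold higher than acute 24 h. Gm36161 was highest where the macrophage sum was highest, and its 55.7% of shared windows stand beside that; the part of either was not tested. AI427809, a lincRNA 101461 bp from Abca1, the cholesterol exporter gene, was near 0 at acute 24 h. It held 3.77, 3.52, 3.10 and 2.98 CPM in healthy libraries, 0.591, 0.0816 and 0.166 CPM at acute 24 h and 10.8, 8.93, 12.0 and 7.74 CPM at acute 7 d, so that neither group overlapped healthy. It fell by 3.53 ± 0.43 on the log2 scale at acute 24 h (edgeR adjusted p = 1.5e-06) and was higher by 1.46 ± 0.31 at acute 7 d (edgeR adjusted p = 0.00137), the group without which its mean was 4.49 CPM, below the level of the rule. Its chronic 24 h libraries held 3.14 to 5.72 CPM. Abca1 was called in the same direction, with log2 changes of −1.59 at acute 24 h and 1.33 at acute 7 d. The call at chronic 72 h (1.08 ± 0.31) was lost without chronic 72 h replicate 4 (0.91).

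**Figure D4:**
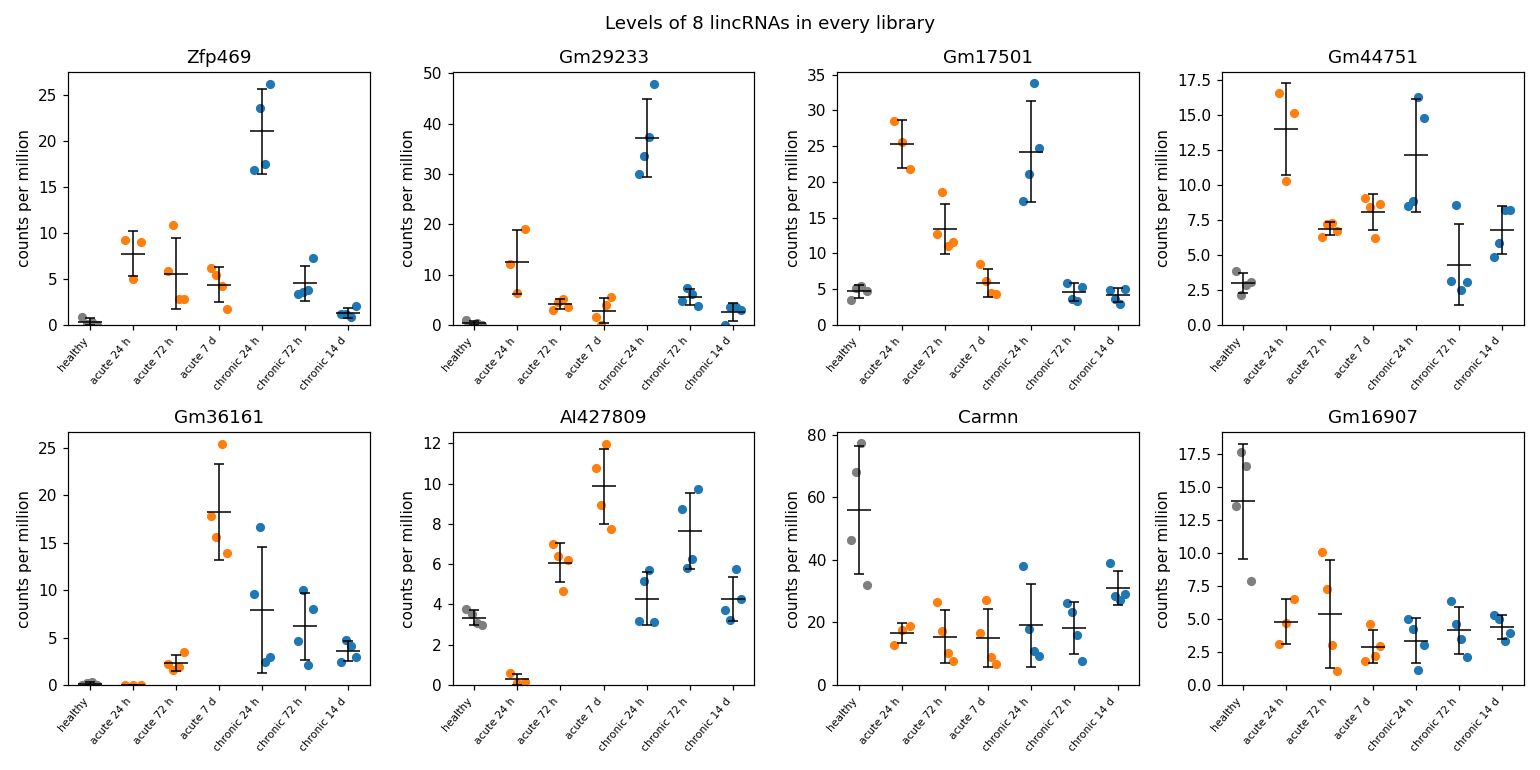
Points are the CPM of 8 lincRNAs in each library (grey healthy, orange acute, blue chronic), with group means and SD as bars. Zfp469 and Gm29233 peak at chronic 24 h, Gm36161 and AI427809 at acute 7 d, and Carmn and Gm16907 have their highest group means in healthy HSCs.

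Several lincRNAs were lower in most injured groups. Carmn, known from smooth muscle and pericyte-like cells, where it is the host of the miR-143 and miR-145 genes in human, held 46.4, 68.1, 77.2 and 32.0 CPM in healthy HSCs. It held 12.9, 17.7 and 18.96 CPM at acute 24 h and 26.6, 17.3, 10.4 and 7.73 CPM at acute 72 h, all below the lowest healthy library, and 38.1, 17.8, 11.0 and 9.20 CPM at chronic 24 h, where replicate 1 overlapped. It fell by 1.75 ± 0.52 on the log2 scale at acute 24 h (edgeR adjusted p = 0.0112), by 1.96 ± 0.47 at acute 72 h (0.0042), by 2.03 ± 0.47 at acute 7 d (0.00309), by 1.58 ± 0.47 at chronic 24 h (0.0125) and by 1.76 ± 0.47 at chronic 72 h (0.00959). The call was lost at acute 24 h without acute 24 h replicate 1 (0.0578) and at chronic 24 h without chronic 24 h replicate 4 (0.0535). At chronic 14 d it held 39.0, 28.5, 27.2 and 29.1 CPM and was not called (−1.03, adjusted p = 0.177), but with depth class as a term in the model its change was −2.24 (0.0236); all 4 libraries of that group are of low depth. Of 12 stellate markers, 8 were called lower at chronic 24 h, led by Colec11 (−2.94 on the log2 scale), and 1 higher, Pdgfrb (1.03), and at acute 24 h 4 were lower.

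Gm16907 held 13.6, 17.6, 16.6 and 7.89 CPM in healthy HSCs and 1.80, 4.64, 2.17 and 2.99 CPM at acute 7 d, with no overlap. Without the healthy libraries its mean was 4.13 CPM, below the level of the rule, which favoured its falls. It fell by 2.36 ± 0.52 on the log2 scale at acute 7 d (edgeR adjusted p = 0.00182), by 2.08 ± 0.52 at chronic 24 h (0.00349), and by 1.48 to 1.89 in the other 4 groups. The call was lost at acute 24 h without healthy replicate 2 or 3 or acute 24 h replicate 1 or 2 (adjusted p 0.0723 to 0.147), at acute 72 h without healthy replicate 1, 2 or 3 or acute 72 h replicate 3 or 4 (0.0523 to 0.11), and at chronic 14 d without healthy replicate 2 or 3 or chronic 14 d replicate 2, 3 or 4 (0.0641 to 0.1). 2010111I01Rik, the gene that it overlaps on the opposite strand by 90 bp of exon, was not called in any of the 6 groups. C030037D09Rik, named after its values were seen, was lower in 5 of 6 groups. Its start lies 132 bp from that of Msi2, an RNA-binding protein gene, it shared no window, and its mean was 26.7 ± 5.52 CPM (SD, n = 4) in healthy HSCs against 11.5 ± 1.22 at chronic 24 h, 11.6 ± 0.517 at chronic 72 h, 14.7 ± 1.83 at chronic 14 d (n = 4 each), 12.3 ± 1.52 (n = 3) at acute 24 h and 11.6 ± 1.14 (n = 4) at acute 7 d. These 5 changes ran from −1.32 to −1.03 on the log2 scale with SE of 0.17 to 0.19, and no library overlapped healthy. At acute 72 h the change was −0.75 ± 0.17.

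Gdap10, 1200007C13Rik and Lncpint were lower at some times. Gdap10, inside the span of Nampt, held 28.1, 32.9, 41.4 and 39.7 CPM in healthy HSCs and 8.61, 7.58 and 13.9 CPM at acute 24 h, a fall by 1.82 ± 0.42 on the log2 scale (edgeR adjusted p = 0.00177). By chronic 14 d it was back at 33.7, 29.7, 53.5 and 45.1 CPM. 1200007C13Rik held 126, 175, 156 and 170 CPM in healthy HSCs and 92.0, 43.7, 47.7 and 39.4 CPM at acute 72 h, a fall by 1.60 ± 0.36 (edgeR adjusted p = 0.00232). Lncpint, a target of p53 in mouse, held 23.2, 13.8, 9.69 and 7.97 CPM in healthy HSCs and 1.88, 4.64, 5.05 and 3.06 CPM at acute 7 d. That fall by 1.98 ± 0.61 (edgeR adjusted p = 0.0211) was lost without healthy replicate 1 (0.0758) or acute 7 d replicate 1 (0.0749) or 4 (0.0528). Gm26870 (−4.69 ± 1.15 at chronic 24 h, −4.08 ± 1.10 at chronic 72 h and −4.86 ± 1.14 at acute 7 d) and Gm26580 (−3.56 ± 0.75 at chronic 24 h and −3.28 ± 0.73 at acute 7 d) fell far but varied widely among healthy libraries, at 28.2, 69.7, 20.7 and 7.57 CPM and at 10.8, 23.6, 19.6 and 2.98 CPM. Gm26870 shared 60.4% of its windows with other genes. Without the healthy libraries the mean of Gm26580 was 3.91 CPM, below the level of the rule, which favoured its falls.

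Some lincRNAs were lower at acute 24 h and called against healthy HSCs at no other time. Gm20300 held 16.9, 14.1, 15.5 and 23.04 CPM in healthy HSCs and 3.12, 5.22 and 5.38 CPM at acute 24 h, a fall by 1.92 ± 0.29 on the log2 scale (edgeR adjusted p = 1.85e-05). Lppos held 7.37, 4.08, 4.53 and 3.87 CPM and then 1.69, 1.22 and 1.57 CPM, a fall by 1.71 ± 0.37 (edgeR adjusted p = 0.000967). In both the groups did not overlap, and leaving out any 1 library kept the calls. 2810032G03Rik, with 4.91, 4.91, 3.25 and 6.04 CPM in healthy HSCs, fell by 1.52 ± 0.29 (edgeR adjusted p = 0.000269).

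Norad (2900097C17Rik), which binds Pumilio proteins, and Cyrano (1700020I14Rik), which directs the decay of miR-7, were not called above 2-fold in any comparison with healthy HSCs, though both lay near that limit at acute 24 h. Cyrano held 190, 177, 175 and 136 CPM in healthy HSCs and 85.2, 89.1 and 90.9 CPM at acute 24 h, without overlap and with a change of −0.93 ± 0.18 on the log2 scale (edgeR adjusted p = 0.000252), which passed 2-fold without healthy replicate 4 (−1.02), and differed across the 7 groups (edgeR adjusted p = 0.000755). Norad held 276, 344, 385 and 362 CPM and 173, 153 and 194 CPM in the same groups and shared 34.5% of its windows with Gm7292. Its change at acute 24 h was −0.98 ± 0.21 (edgeR adjusted p = 0.00107), and it was called with DESeq2 or its size factors (−1.004 in both) and without healthy replicate 1 (−1.07) or acute 24 h replicate 3 (−1.07). For AW112010, known from inflammatory cells, 1 library decided the value at chronic 24 h. At chronic 24 h it held 233, 41.4, 21.3 and 22.9 CPM and in healthy HSCs 175, 121, 112 and 155 CPM. It was not called (−0.84 on the log2 scale, edgeR adjusted p = 0.198), and without chronic 24 h replicate 1 the change was −2.32 (1.09e-06). It held 46.7, 56.1 and 47.7 CPM at acute 24 h and was called lower (−1.48 ± 0.54, edgeR adjusted p = 0.0377), which was lost with no filter on low counts (0.102) and without healthy replicate 1 or 4 or any 1 acute 24 h library (0.0638 to 0.11). At acute 72 h its change was −1.34 ± 0.49 (edgeR adjusted p = 0.053), called under 6 alternatives (0.000196 to 0.0478).

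Snhg18 and Snhg20 host small RNAs. Snhg18, whose start lies 148 bp from that of Sema5a, held 22.2, 18.4, 14.7 and 19.3 CPM in healthy HSCs and 25.8, 39.2, 62.0 and 45.1 CPM at chronic 24 h, all above healthy. It was higher by 1.21 ± 0.39 on the log2 scale (edgeR adjusted p = 0.0213), which was lost without healthy replicate 3 (0.0621) or chronic 24 h replicate 3 (0.0856), and Sema5a by 1.95 ± 0.32 (6.71e-05). Snhg20 held 7.54, 6.21, 5.95 and 9.02 CPM in healthy HSCs and 3.05, 3.87, 2.51 and 5.66 CPM at acute 72 h, a fall by 1.04 ± 0.27 (edgeR adjusted p = 0.00784) that went under 2-fold without healthy replicate 4 (−0.90) or acute 72 h replicate 1 (−0.95) or 3 (−0.90). The counts that follow stand beside 11.2% of all genes higher and 8.11% lower at chronic 24 h and 9.41% and 12.5% at acute 24 h. In the wider list of 18 snoRNA hosts, most of which are not members, 4 were called higher at chronic 24 h, led by Dancr (1.77 on the log2 scale), and 5 at acute 24 h, led by Snhg6 (2.01). Of 11 genes of the snoRNA-binding proteins, 5 were higher at acute 24 h and 2 at chronic 24 h, in both led by Nhp2 (2.78 and 2.26). Of 9 genes for microRNA processing 1 was called lower at acute 24 h, Ago4 (−1.96), a share near that of all genes. Of 9 tested noncoding RNAs of development and chromatin, a list that holds Norad and Cyrano, 5 were lower at chronic 24 h, led by Fendrr (−2.48), and 4 at acute 24 h, led by Peg13 (−1.92). Of 5 microRNA hosts tested, 2 were higher and 1 lower at chronic 24 h, led by Mir155hg (3.28) and Mir99ahg (−1.24), and of 4 noncoding RNAs linked to p53 or Myc none was called there.

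The next comparison asked whether called lincRNAs and the protein-coding gene beside them were called together. Of the members called at chronic 24 h, 3 of 7 with exon overlap had a linked gene called in the same direction. So did 2 of 3 head to head, 1 of 1 downstream and 0 of 9 of the remaining class. Of these 9, 3 had a linked gene that was not tested and 2 one called in the other direction. Gdap10 and Zfp469, which overlap the span of a coding gene, are among the 9. At acute 24 h the numbers in these classes were 1 of 5, 0 of 4, 1 of 3 and 1 of 11. The linked gene was not tested for 1 of the 5 and for 5 of the 11. Where exons overlap, reads of 1 gene may have been counted for the other. The part of this in the calls that agree was not tested. Of all genes 11.2% were called higher and 8.11% lower at chronic 24 h and 9.41% and 12.5% at acute 24 h, and the difference between the positions was not tested. Gm10605, named after its values were seen, and Tpbgl, which overlap, both fell (−1.64 and −1.09 at chronic 24 h on the log2 scale). Gm26669 fell by 2.51 at chronic 24 h and Zfp36l1, with which it shares 88.0% of its windows, had a log2 change of −0.18.

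**Figure D5:**
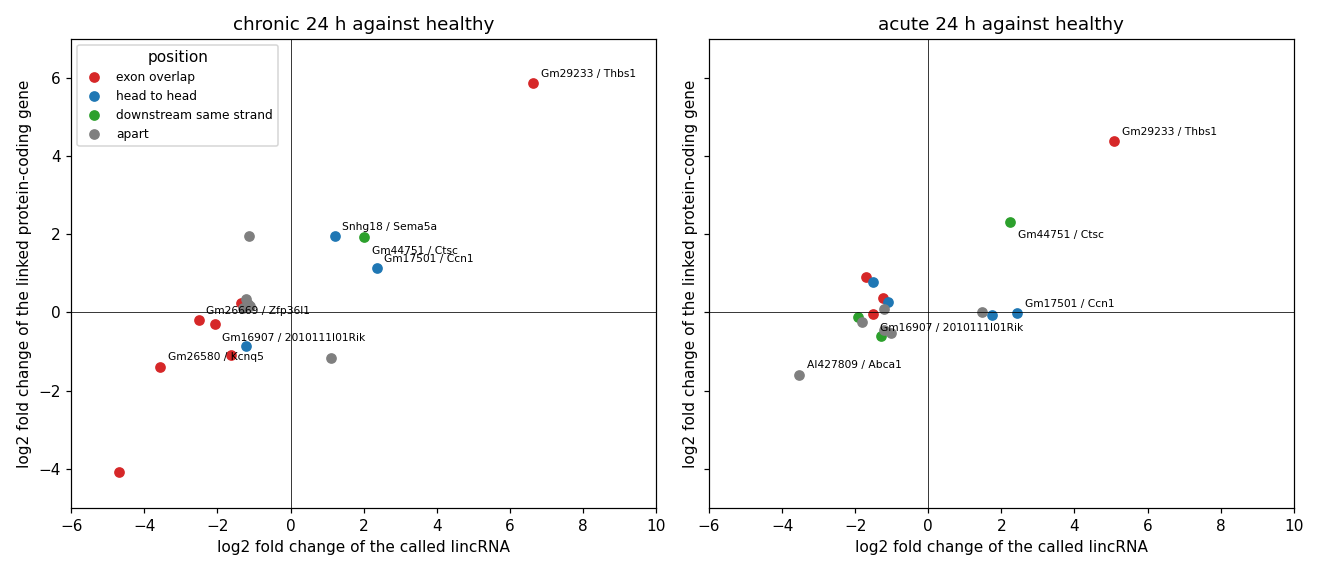
Each point is a lincRNA called against healthy HSCs, with its log2 fold change on the x axis and that of its linked protein-coding gene on the y axis where that gene was tested, at chronic 24 h (left) and acute 24 h (right), coloured by position. Gm29233 with Thbs1 and Gm44751 with Ctsc lie high on both axes, while Gm17501 lies at 2.43 beside −0.01 for Ccn1 at acute 24 h.

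Repeated and single injury were compared at 24 h. Of the lincRNAs, 7 were higher and 7 lower at chronic 24 h than at acute 24 h, beside 10.9% and 3.05% of all genes. Highest after Gm36161 was AI427809 (3.89 ± 0.43 on the log2 scale, edgeR adjusted p = 1.05e-06). 2810032G03Rik, divergent from Klhl29, held 1.52, 1.63 and 1.82 CPM at acute 24 h and 6.91, 5.54, 6.95 and 7.28 CPM at chronic 24 h (1.99 ± 0.29, edgeR adjusted p = 3.64e-05). Gm26802, 1926 bp downstream of Fosb, was lower, with 7.34, 5.80, 4.09 and 6.82 CPM against 26.8, 36.5 and 37.7 CPM (−2.50 ± 0.65, edgeR adjusted p = 0.00728), while Fosb had a log2 difference of 0.07 and was not called. The healthy libraries of Gm26802 held 5.96 to 29.6 CPM.

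Between chronic 24 h and chronic 14 d, 4 lincRNAs were higher and 4 lower, beside 6.65% and 6.11% of all genes. Those that fell were Zfp469 (−4.17), Gm29233 (−4.04), Gm17501 (−2.72) and Gm44751 (−1.02). Each was also called higher than healthy at chronic 24 h, a comparison that shares the chronic 24 h libraries. Zfp469 and Gm29233 were held at the level by those libraries. The call of Gm44751 was lost without chronic 24 h replicate 3 (−0.83) or 4 (−0.86) or chronic 14 d replicate 1 (−0.89) or 2 (−0.92). Those that were higher were Gm26580 (2.09), Gm26669 (1.71), Gdap10 (1.22) and, named after its values were seen, Gm32618 (1.01). Gm26580 was lost without chronic 24 h replicate 1, 2 or 3 or chronic 14 d replicate 1 or 2 (adjusted p 0.0705 to 0.14), and Gdap10 without chronic 24 h replicate 2 (0.0679) or 3 (0.0693) or chronic 14 d replicate 3 (0.0566). With library totals in place of TMM scaling the split was 8 higher and 3 lower, and the median of all genes moved by 0.17. Without chronic 24 h replicate 2 the total was 5. Between chronic 72 h and acute 7 d no lincRNA was called by edgeR, beside 0.165% and 0.267% of all genes higher and lower. At an unadjusted p below 0.05, 4 were higher and 5 lower, and DESeq2 called 1.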

How the data were processed

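RNA of 27 HSC isolations was sequenced single-end with 75 base reads. The authors mapped reads to GRCm38.p6 with STAR and quantified genes with StringTie, and deposited raw counts per gene; versions, strand setting and annotation release are not given in the sources used here. Counts were analysed as deposited, and levels are CPM of the column total. Symbols, gene types and positions came from GENCODE M21 (GRCm38). edgeR 4.0.16 (R 4.3.3) fitted 7 group means to all genes kept by filterByExpr (18758), with TMM scaling, robust quasi-likelihood F tests and Benjamini-Hochberg adjustment over all of them; log2 changes are given with SE. Genes at adjusted p below 0.05 and above 2-fold were called. DESeq2 1.42.0, other scalings and filters, depth terms, a replicate block and leaving out each library were alternatives. The fit was tested on simulated data. Named genes were members of noncoding RNA lists, the 3 highest and 3 lowest called per comparison, the 5 highest per kb, those next to the level and hosts of small RNAs; others are marked in the text. Members and lists were chosen with earlier results of these data known. Groups hold 3 or 4 libraries, and p-values rest on a spread within groups that is estimated over all 27 libraries and moderated across genes. The result of 1 list of protein genes is not reported here.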

Additional observations from a re-analysis of the deposited data

Results flagged for a closer look

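Among 198 groups of 4 libraries examined for the named lincRNAs, 15 held 1 library farther from the others than Dixon's 95% limit, where chance gives about 1 in 20. At acute 72 h these were replicate 1 for 1200007C13Rik (92.0 CPM against 39.4 to 47.7) and Gm26860 (6.91 CPM), replicate 2 for Gm26825 (645 CPM) and replicate 4 for 2810032G03Rik (7.25 CPM) and BC002059 (6.37 CPM). At chronic 72 h they were replicate 1 for Lppos (5.21 CPM), replicate 2 for Gm44751 (8.59 CPM), replicate 3 for Norad, 2900097C17Rik (302 CPM), and replicate 4 for 1200007C13Rik (72.4 CPM) and Zfp469 (7.29 CPM). At chronic 24 h replicate 1 stood apart for AW112010 (233 CPM against 21.3 to 41.4) and Gm42418 (91.0 CPM). The rest were Carmn in chronic 14 d replicate 1 (39.0 CPM), Gm26825 in acute 7 d replicate 4 (1184 CPM against 298 to 375) and Neat1 in healthy replicate 4 (563 CPM against 1350 to 1375).

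The step from 24 h to 72 h differed between repeated and single injury for 15 of 86 lincRNAs by a test of the difference itself (edgeR interaction contrast, adjusted p below 0.05 and above 2-fold), beside 8.74% of all genes. Of the 6 named, the log2 step after repeated injury minus that after a single injection was −8.05 for Gm36161 (adjusted p = 0.00107; fitted against 3 libraries at 0, so no measure of size), −3.57 for AI427809 (9.92e-05), −1.52 for 2810032G03Rik (0.0105), −1.50 for Gm17501 (0.0118), 1.95 for 1200007C13Rik (0.0158) and 2.51 for Gm26669 (0.0161).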

How the results depend on the processing

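Counts of called lincRNAs stayed within 1.5 times under most alternatives. With no fold minimum they were 25 for chronic 72 h against healthy (16 with it), 16 for chronic 14 d against chronic 24 h (8) and 23 for chronic 24 h against acute 24 h (14). Chronic 14 d against healthy gave 4 with DESeq2 size factors, with library totals or with no filter, and 2 with only the groups compared, against 7. The libraries other than the 8 of lowest depth gave 9 for chronic 24 h against acute 24 h and 1 for chronic 72 h against acute 7 d, where DESeq2 also gave 1; no chronic 14 d library is among them, so these comparisons were not run. The cause was not tested. Only the 74 members at the level without their highest group, an alternative chosen after seeing the data, gave 9 for chronic 72 h against healthy and 5 for chronic 14 d against chronic 24 h. Leaving out each library gave 17 to 23 at chronic 24 h, 12 to 17 at chronic 72 h, 1 to 7 at chronic 14 d, 19 to 24 at acute 24 h, 17 to 25 at acute 72 h and 21 to 24 at acute 7 d, 5 to 10 for chronic 14 d against chronic 24 h, 10 to 15 for chronic 24 h against acute 24 h, 0 to 1 for chronic 72 h against acute 7 d (1 without chronic 72 h replicate 2) and 49 to 54 across the groups.

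With a replicate block the counts were 22, 17 and 7 at chronic 24 h, 72 h and 14 d and 22, 25 and 24 at acute 24 h, 72 h and 7 d. Deviations of log2 CPM from group means correlated at −0.17 to 0.19 between same-numbered libraries of different groups. For 8 of 27 libraries the best match in another group had the same number. This check over all groups showed no clear pairing and cannot exclude one within some groups. At chronic 24 h and chronic 72 h, replicates 1 and 2 were among the libraries of lowest depth and replicates 3 and 4 were not. AW112010 reversed in chronic 24 h against acute 24 h, from 0.64 (not called) to −1.22 (adjusted p = 0.00539) with higher-depth libraries alone. Of 93 called changes of named lincRNAs, 55 kept their call under every alternative run and 38 lost it under at least 1. Depth limits lincRNAs near 5 CPM, most in the 8 libraries of lowest depth.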
